A study of Mus musculus with 2 samples.

Results

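Efferocytosis is the clearance of dying cells by phagocytes, and 8 mouse genes of this process are described here in macrophages treated with interleukin 10 (IL-10) and in untreated macrophages. The genes were taken by name as receptors, bridging molecules and engulfment adaptors: Mertk, Axl, Timd4, Lrp1, Gas6, Mfge8, Dab2 and Elmo1. All 8 were found, out of 10540 genes with spliced reads that could be assigned to 1 gene, and all 8 had the minimum of 20 reads over both libraries that 8374 genes reached. The cells of both libraries were adherent macrophages from male C57BL/6JJcl mice, washed from the peritoneum 3 days after injection of thioglycolate, a sterile irritant, and left to adhere for 24 h. The treated cells received IL-10 at 100 ng/ml for 4 h. Each group is 1 RNA-seq library, and how many mice went into each is not given in the sources used here.

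A dying cell exposes phosphatidylserine on its outer membrane. Soluble bridging proteins bind this lipid on one side and a phagocyte receptor on the other, or the receptor binds the lipid directly, and adaptor proteins inside the phagocyte then drive engulfment and endocytic traffic. Resident and recruited macrophages of the peritoneum are well known for this clearance, while IL-10 dampens macrophage activation, largely by way of the transcription factor Stat3.

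The measured values are reads that span a splice junction, of which there were 3998954 with IL-10 and 4035991 in untreated cells. The denominator used below is the reads on introns of 1 named gene, 3844280 with IL-10 against 3872688 in untreated cells. With 1 library per group nothing here has a replicate check. Ratios are shares of these reads in IL-10 over untreated, they compare these libraries and not the conditions, and each 95% interval is an exact binomial interval for counting error alone. The labelled cell type was checked first. Macrophage markers were abundant, with 4648 reads with IL-10 and 4847 in untreated cells for Adgre1 (F4/80), and 6737 and 7892 for the growth factor receptor gene Csf1r. Of 10 macrophage markers 7 were measured and 0 called, 3 with an interval above 1 and 3 below 1. Their sum was 15713.5 reads per 1000000 named reads with IL-10 and 19820.3 in untreated cells. Lyz2 held the most of these, with 31849 reads with IL-10 and 45047 in untreated cells (0.712, 0.702 to 0.723). With Lyz2, Cd68 and Csf1r had an interval below 1, and Mrc1, Itgam and Fcgr1 had an interval above 1. Lists of other cell types summed to far less: fibroblast and mesothelial markers took 327.5 reads per 1000000 named reads (RPM) with IL-10 and 299.3 in untreated cells, neutrophil markers 145.9 and 129.6, B cell markers 127.7 and 141.0, platelet markers 112.4 and 135.6, endothelial markers 51.8 and 29.95, mast cell and eosinophil markers 27.6 and 18.3, and monocyte markers 21.1 and 10.1. T and NK cell markers had 12 reads with IL-10 and 1 without, and dendritic cell markers 11 and 1. The defining markers Cd79a and Pax5 of B cells, S100a8 and S100a9 of neutrophils, Cd3d of T cells and Flt3 of dendritic cells had no named junction in either library. The monocyte receptor gene Ccr2 was called higher, with 65 reads with IL-10 and 25 in untreated cells.

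Of the 8 genes, Dab2 alone passed the 2-fold rule, under which the ratio is at least 2 or at most 0.5 and its interval excludes 1. Dab2 was 2.90-fold higher in the IL-10 library (95% interval 2.63 to 3.20), and 0 of the 8 were called lower. Over all measured genes 146 (1.74%) were called higher and 124 (1.48%) lower. By the wider rule that the interval excludes 1 at any fold, Dab2, Lrp1 and Gas6 lay above 1 and Axl, Mertk and Mfge8 lay below 1, while the intervals of Elmo1 and Timd4 included 1. That rule holds for 12.8% of all genes above 1 and 13.1% below 1. Among the 2395 genes with at least 500 reads, to which Lrp1, Mfge8, Dab2, Mertk and Elmo1 belong, it holds for 23.3% above and 22.4% below, and the 2-fold rule for 0.543% higher and 0% lower. The median log2 ratio was 0.08 over the 8 genes and 0.00 over all genes.

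**Figure D1:**
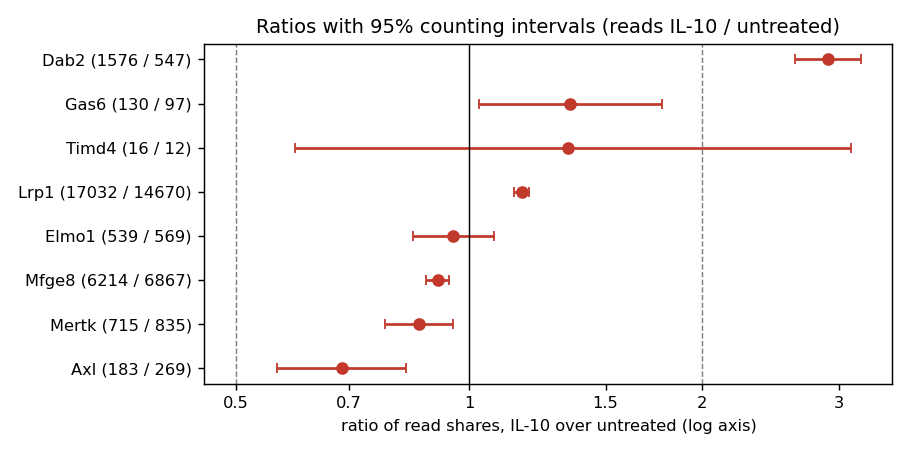
Ratio of read shares, IL-10 over untreated, on a log axis for each of the 8 genes, with points for the ratio, bars for the 95% counting interval, dashed lines at 0.5 and 2, and the reads of each library beside the name. Dab2, at 2.90, is the only point beyond a dashed line, and the interval of Timd4 is the widest (0.596 to 3.11).

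**Figure D2:**
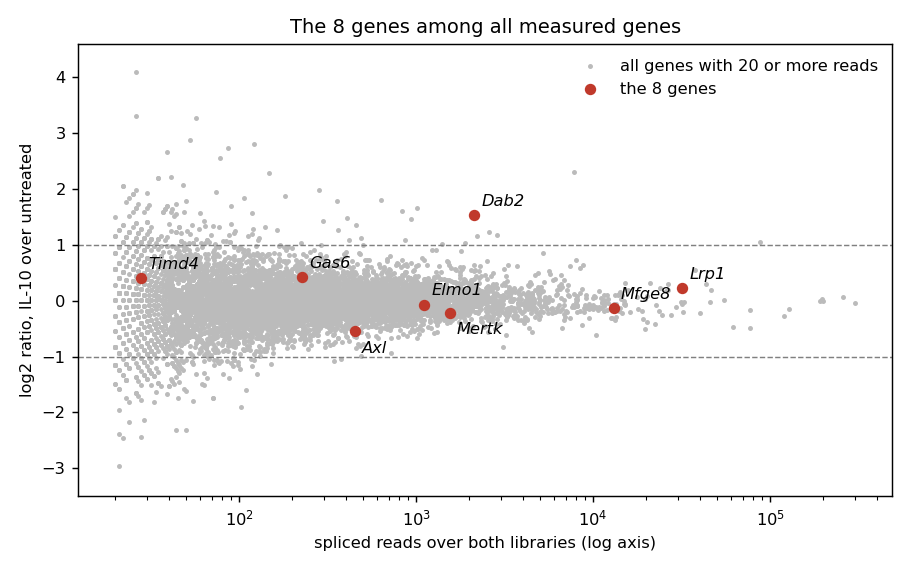
Log2 ratio, IL-10 over untreated, against spliced reads over both libraries (log axis), with a grey point for each measured gene and red points for the 8 genes. Dab2 stands at 1.54, above the dashed line of a 2-fold difference, and the other 7 lie between -0.54 and 0.43.

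Levels can be compared between genes as RPM, averaged over the introns of the main transcript, which removes the effect of the number of introns. On this scale Mfge8 was the most abundant of the 8 at 177.8 with IL-10 and 195.1 in untreated cells, and Lrp1 followed at 50.3 and 43.0. Mertk stood at 10.3 with IL-10 and 11.98 without, and Dab2 at 27.9 and 9.59, so these neighbours changed places between the libraries and their values overlap. Elmo1 had 6.68 and 6.95, Axl 2.51 and 3.66, Gas6 2.42 and 1.79, and Timd4 0.520 and 0.387. The values of the remaining neighbours did not overlap, although Axl and Gas6 were close in the IL-10 library.

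**Figure D3:**
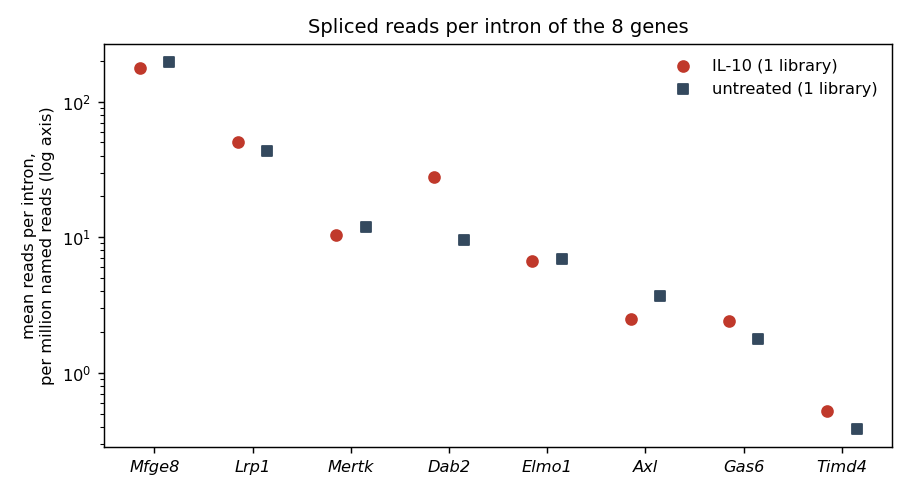
RPM, averaged over introns (log axis), for the 8 genes, with circles for IL-10 and squares for untreated cells, 1 library each. Mfge8 leads at 177.8 and 195.1, and Dab2 (27.9 and 9.59) has the widest gap between its points.

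Mertk and Axl encode receptor tyrosine kinases of the TAM family, a family whose ligands are the bridging proteins Gas6 and Protein S. Mertk (chromosome 2, introns from 128524840 to 128626889 on the mm9 build) had 715 reads with IL-10 and 835 in untreated cells, a ratio of 0.863 (0.780 to 0.954). All 18 introns of its main transcript had reads. Of 17 introns with at least 20 reads 13 lay below 1 and 4 above, and intron 1, with 41 reads with IL-10 and 74 without, was the only one whose interval excluded 1 (0.558, 0.371 to 0.828). Over all introns with at least 20 reads, 6.48% had an interval below 1 and 7.32% above 1. The lower value of Mertk was spread along the gene, with 0.876 (0.771 to 0.996) over the first 9 introns and 0.840 (0.710 to 0.993) over the last 9.

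Axl (chromosome 7, 26544033 to 26573433) had 183 reads with IL-10 and 269 in untreated cells, a ratio of 0.685 (0.565 to 0.830), which did not reach the 2-fold rule. A short intron held part of this difference. Intron 5 of Axl, 138 bases long (chr7:26563505-26563642, minus strand), had 0 reads with IL-10 and 27 in untreated cells. Its neighbours had reads in both: intron 4 had 17 with IL-10 and 36 without, and intron 6 had 18 and 21. Over all genes, 70 of 42692 introns with at least 20 reads (0.164%) were likewise at 0 in 1 library, 33 with IL-10 (0.0773%) and 37 in untreated cells (0.0867%). Among introns of at most 200 bases the share was 0.205%, and among longer ones 0.156%. The longest aligned length on intron 5 was 82 bases on each side, a maximum over its reads, and why it had 0 reads with IL-10 was not tested. The bases that such a read crosses are given with the upstream exon in lower case and the downstream exon in capitals.
Axl intron 5 junction: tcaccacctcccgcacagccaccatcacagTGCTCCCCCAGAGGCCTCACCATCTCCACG
Without introns of at least 20 reads that are at 0 in 1 library, a setting added after the data were seen, the ratio of Axl was 0.762 (0.625 to 0.927). Of 12 introns with at least 20 reads 10 lay below 1 and 2 did not, and introns 4, 5 and 11 were called lower, against 2.02% of all such introns. The first 9 introns gave a ratio of 0.569 (0.426 to 0.757) and the last 9 gave 0.826 (0.632 to 1.08). A coding exon of 27 bases that separates 2 annotated forms of Axl had 0 reads on either of its junctions with IL-10 and 2 and 3 in untreated cells, and the junction that skips it had 0 in both, so its use could not be compared at this depth.

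Timd4 encodes a receptor that binds phosphatidylserine directly and marks resident peritoneal macrophages. It was close to the limit of detection, with 16 reads with IL-10 and 12 in untreated cells (chromosome 11, 46629275 to 46656620; ratio 1.34, 0.596 to 3.11), and 6 of its 8 introns had any reads. The other markers of resident peritoneal macrophages were low too, 69.7 RPM with IL-10 and 64.3 without in sum over 9 genes. Among them Gata6, the transcription factor that defines these cells, had 18 and 22 reads, Prg4 140 and 124, and the adhesion molecule gene Selp 29 and 6. Selp was called higher (4.87-fold, 1.99 to 14.3) and the other 5 measured genes of that list were not called. What part the share of resident cells has in the value of Timd4 was not tested, and fewer cells of a type and less RNA per cell cannot be told apart in such libraries.

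Lrp1 encodes a large endocytic receptor that takes part in uptake of dying cells with calreticulin as partner, and it had the most reads of the 8. Lrp1 (chromosome 10, 126976147 to 127057673) had 17032 reads with IL-10 and 14670 in untreated cells, a ratio of 1.17 (1.14 to 1.20). The difference was small but rested on many introns. All 88 introns of the main transcript had at least 20 reads, 66 of them lay above 1 and 22 did not. The interval lay above 1 for 21 and below 1 for 2, against 7.32% and 6.48% of all introns with at least 20 reads, and 0 passed the 2-fold rule. Most introns of Lrp1 had far more than 20 reads, and intervals exclude 1 more readily at higher depth. These counts and the shares over all introns are therefore not at like depth. The first 44 introns gave 1.13 (1.08 to 1.17) and the last 44 gave 1.19 (1.16 to 1.22). Among the introns, 45 (180 reads with IL-10, 101 without) had the highest ratio at 1.80 (1.40 to 2.31). Introns 14 (60 and 98 reads) and 79 (279 and 386 reads) had intervals below 1, at 0.617 (0.440 to 0.859) and 0.728 (0.622 to 0.852).

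Gas6 encodes the vitamin K-dependent ligand that links phosphatidylserine to Axl, Mertk and Tyro3. Its sum (chromosome 8, 13465901 to 13494260) was 130 reads with IL-10 and 97 in untreated cells, a ratio of 1.35 (1.03 to 1.77). Its last intron, 14, held 40 reads with IL-10 and 33 without, and 3 of its 14 introns reached 20 reads, none with an interval that excluded 1. The first 7 introns gave 1.03 (0.640 to 1.67) and the last 7 gave 1.54 (1.10 to 2.18), and with a 99% interval Gas6 no longer lay above 1. Gas6 thus had an interval above 1, while those of its receptors Axl and Mertk lay below 1.

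Mfge8 encodes a secreted protein that binds phosphatidylserine through discoidin-like domains and integrins through an RGD motif. Mfge8 (chromosome 7, 86279433 to 86293780) had 6214 reads with IL-10 and 6867 in untreated cells, a ratio of 0.912 (0.881 to 0.944). Of 10 introns with at least 20 reads 8 lay below 1, 4 of them with an interval below 1, and none passed the 2-fold rule. Over all such introns 6.48% had an interval below 1, a share that is not at the high depth of Mfge8. Intron 2 had 1155 reads with IL-10 and 1374 untreated (0.847, 0.782 to 0.916), while intron 9 had 1084 and 1093 (0.999).

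Mfge8 is made in a long form and a short form, which differ by a coding exon of 111 bases (chr7:86288164-86288274, minus strand). This exon encodes the stretch rich in proline and threonine that is known for the long form. In the exon as given by the GENCODE transcript, the in-frame CCN and ACN codons, which encode proline and threonine, are in capitals and make up 11 of 36 whole codons.
Mfge8 exon of 111 bases: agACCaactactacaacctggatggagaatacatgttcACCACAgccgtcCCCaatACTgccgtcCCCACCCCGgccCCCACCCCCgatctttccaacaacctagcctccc
Reads that enter the exon, leave it or skip it cross the following bases, with the upstream exon in lower case and the downstream exon in capitals.
Mfge8 into the exon: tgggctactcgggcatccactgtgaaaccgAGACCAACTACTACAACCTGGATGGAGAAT
Mfge8 out of the exon: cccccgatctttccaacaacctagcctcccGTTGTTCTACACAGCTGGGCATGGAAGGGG
Mfge8 past the exon: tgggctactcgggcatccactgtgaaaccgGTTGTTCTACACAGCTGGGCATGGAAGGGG

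The junction into this exon of Mfge8 had 641 reads with IL-10 and 763 in untreated cells, the junction out of it had 75 and 70, and the skipping junction had 62 and 66. At its 5′ junction the inclusion share was 91.2% with IL-10 (95% interval 88.8 to 93.2%) and 92.04% without (89.98 to 93.8%), a difference of -0.86 points (-3.71 to 1.92). At its 3′ junction the share was 54.7% (46.0 to 63.3%) and 51.5% (42.8 to 60.1%), a difference of 3.27 points (-8.46 to 14.9). The shares of the libraries overlapped at both junctions, and the long form was present in both. The junctions of the exon gave different levels in either library, since far fewer reads left it than entered it, and these reads do not fix the share of the long form in either library. Why the 227-base intron after the exon had so few reads was not tested.

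Dab2 encodes an endocytic adaptor that joins receptors of the low-density lipoprotein receptor family to clathrin and AP-2. Dab2 (chromosome 15, 6336933 to 6388781) had 1576 reads with IL-10 and 547 in untreated cells. Its log2 ratio of 1.54 ranked 5 among the 2395 genes with at least 500 reads. The genes with at least 500 reads nearest to it in log2 ratio over the 2 libraries were the IL-4 receptor gene Il4ra at 2.77 (2.39 to 3.21), the nucleoside transporter gene Slc28a2 at 3.06 (2.61 to 3.601) and Rab3il1 at 3.17 (2.74 to 3.68). The 14 introns of Dab2 with at least 20 reads, 13 of the main transcript and a skipping junction, all lay above 1, and 11 of them were called higher, against 2.91% of all introns.

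The higher level of Dab2 ran along the whole transcript. Intron 1, which begins at the most used start of the gene, had 173 reads with IL-10 and 58 untreated (3.00, 2.22 to 4.12), and other annotated starts of Dab2 had 0 reads in either library. Among introns with at least 20 reads, intron 4 had the highest ratio, with 159 and 36 reads (4.45, 3.08 to 6.58), and intron 12 followed with 156 and 38 (4.14, 2.89 to 6.06). Intron 14 had only 12 and 2 reads (6.04, 1.35 to 55.6). Introns 5, 6 and 7 had few reads in either library, 20 with IL-10 and 10 without, 30 and 21, and 20 and 14, and were the 3 that were not called. The interval of intron 6 (0.797 to 2.64) did not overlap that of intron 4. The first 7 introns gave 3.09 (2.63 to 3.65) and the last 7 gave 2.80 (2.46 to 3.18). Fibroblasts and endothelial cells also express Dab2, and the sums of their markers are given above. Of 9 fibroblast and mesothelial markers 5 were measured and 0 called, with a median log2 ratio of 0.30. The ratio was 1.38 (1.11 to 1.72) for Col3a1, 1.37 (0.955 to 1.97) for Pdgfra, 1.23 (1.08 to 1.40) for Col1a2, 0.928 (0.803 to 1.07) for Col1a1 and 0.756 (0.576 to 0.988) for Dcn. Of 4 endothelial markers Kdr was measured, at 1.76 (1.39 to 2.23), Cdh5 had 2 reads with IL-10 and 3 in untreated cells, and Tek and Emcn had no named junction. The part of these cells in the value of Dab2 was not tested.

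**Figure D4:**
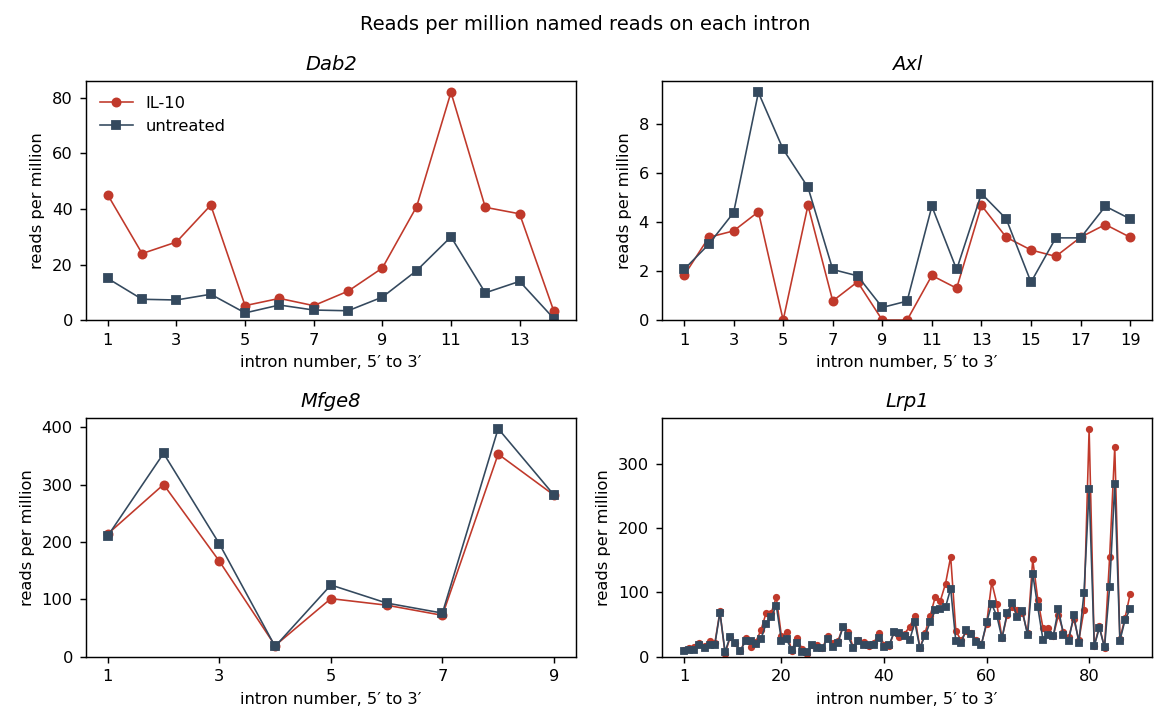
RPM on each intron of the main transcript, numbered 5′ to 3′, in the IL-10 library (circles) and the untreated library (squares) for Dab2, Axl, Mfge8 and Lrp1. The IL-10 points of Dab2 lie above the untreated points on all 14 introns, intron 5 of Axl is at 0 with IL-10, and the curves of Mfge8 and Lrp1 run close together.

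A pair of neighbouring coding exons of Dab2 is skipped in part of its transcripts, and both exons hold a whole number of codons. The exon of 63 bases lies at chr15:6374635-6374697 and that of 654 bases at chr15:6379296-6379949, on the plus strand. Transcripts without the longer exon encode the short protein form of Dab2, which is known for weaker ties to the clathrin machinery. The stretch of the longer exon printed here holds the Asp-Pro-Phe motifs by which Dab2 binds AP-2, and the capitals mark the letters GATCCNTT, which here encode Asp and Pro and begin a Phe codon. In the whole exon they occur 2 times on the transcript strand, both in frame and with no overlap, and 0 times on the other strand. Of the central 654 bases of 49129 protein-coding transcripts, 2.58% hold these letters at least once and 0.0407% at least 2 times on that strand. The letters fit the codons used in this exon and leave out the GAC codon for Asp. These shares therefore do not show how rare Asp-Pro-Phe motifs are.
Dab2 exon of 63 bases: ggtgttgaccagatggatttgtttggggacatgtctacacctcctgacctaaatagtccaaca
Dab2 longer exon, bases 100 to 302: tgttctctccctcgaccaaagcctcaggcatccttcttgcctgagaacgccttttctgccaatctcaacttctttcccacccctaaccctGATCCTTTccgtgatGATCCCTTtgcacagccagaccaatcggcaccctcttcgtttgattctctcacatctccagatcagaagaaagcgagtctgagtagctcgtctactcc
The junctions that decide between these forms start in the shorter exon, in lower case, and end in the longer exon or in the next exon, in capitals.
Dab2 with the longer exon: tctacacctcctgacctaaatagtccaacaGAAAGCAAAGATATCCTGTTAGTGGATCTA
Dab2 without the longer exon: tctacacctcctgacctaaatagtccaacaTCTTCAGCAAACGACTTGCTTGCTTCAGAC

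Both forms of Dab2 were seen in both libraries. For the 654-base exon, 73 reads entered it, 157 left it and 67 skipped it in the IL-10 library, against 37, 69 and 21 in the untreated library. Its inclusion share was 52.1% with IL-10 (43.5 to 60.7%) and 63.8% without (50.1 to 76.0%) at the 5′ junction, a difference of -11.7 points (-25.5 to 3.56), and 70.1% (63.6 to 76.0%) and 76.7% (66.6 to 84.9%) at the 3′ junction, a difference of -6.58 points (-16.4 to 4.65). For the 63-base exon, 40 reads entered, 141 left and 6 skipped with IL-10, against 13, 54 and 5 without. Its share was 87.0% (73.7 to 95.1%) and 72.2% (46.5 to 90.3%) at the 5′ junction and 95.9% (91.3 to 98.5%) and 91.5% (81.3 to 97.2%) at the 3′ junction. The differences were 14.7 points (-5.08 to 38.8) and 4.39 points (-2.21 to 14.5). Each of these 4 intervals includes 0, so a difference in the inclusion share of either exon was not detectable at this depth, while their width does not show that the libraries used the exons alike. Averaged over both junctions the difference was -9.11 points for the longer exon and 9.56 points for the shorter one. In both libraries more reads left each exon than entered it. For the longer exon the intervals at the 5′ and 3′ junction did not overlap with IL-10 (43.5 to 60.7% and 63.6 to 76.0%). These reads therefore do not fix its inclusion share, and the cause was not tested.

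Rare joins of Dab2 were seen in the same region. The join from the exon before the pair directly to the longer exon had 1 read with IL-10 and 5 without, and the join past both exons had 5 and 0. A further exon that begins after position 6377520 was joined to the shorter exon by 7 reads with IL-10 and 1 without. Among reads that end at the longer exon, those from the shorter exon made up 98.6% (92.6 to 99.97%) with IL-10 and 86.5% (71.2 to 95.5%) without, a difference of 12.1 points (2.47 to 26.7). The interval of this difference excludes 0, which the 4 inclusion differences above do not, while the intervals of the libraries overlapped. It rests on the 1 and 5 reads that reach the longer exon without the shorter one. The site is among 30 compared in the 8 genes, and how often such an interval excludes 0 over all sites was not determined.

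**Figure D5:**
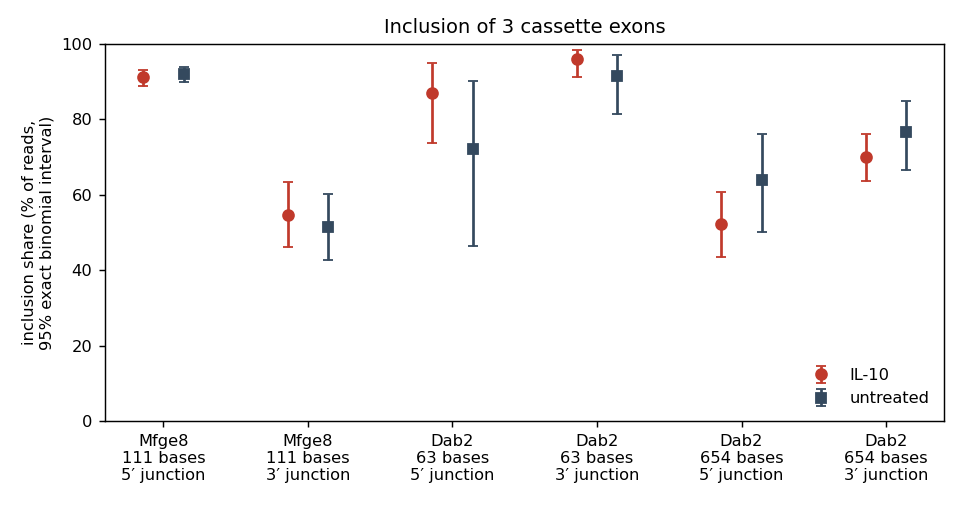
Inclusion share in percent at the 5′ and 3′ junction of 3 cassette exons of Mfge8 and Dab2, with circles for the IL-10 library, squares for the untreated library and bars for the exact binomial 95% interval. The intervals of the libraries overlap for every exon and junction shown, and the junctions of the Mfge8 exon stand apart in both libraries (91.2% against 54.7% with IL-10). Those of the 654-base exon of Dab2 stand apart with IL-10 (52.1% against 70.1%).

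Elmo1 encodes an adaptor that joins Dock proteins to activate the GTPase Rac during engulfment. Elmo1 (chromosome 13, 20182641 to 20696967) had 539 reads with IL-10 and 569 in untreated cells, a ratio of 0.954 (0.847 to 1.08), the nearest to 1 of the 8. Of 18 introns with at least 20 reads 12 lay below 1 and 6 above. Intron 20, with 67 reads with IL-10 and 44 without, had an interval above 1 (1.53, 1.03 to 2.30), and intron 5 had 7 and 0. An interval above 1 was found for 7.32% of all introns with at least 20 reads. Introns from a pair of alternative annotated starts of Elmo1 had 2 reads with IL-10 and 6 in untreated cells, and 0 and 4, too few to compare.

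Over all 8 genes, 30 donor or acceptor sites joined to more than 1 partner had at least 20 reads in each library, 20 of them in Lrp1, 5 in Mfge8, 4 in Dab2 and 1 in Elmo1. At 0 of the 30 did a junction differ in share by at least 20 points with intervals apart, against 18 of 8548 sites (0.211%) over all genes. Skipping of annotated internal exons of Lrp1 and Elmo1 was near complete: a 51-base exon of Lrp1 was skipped by 356 reads with IL-10 and 308 without, and a 45-base exon of Elmo1 by 21 and 23, with 0 reads into either exon and 0 and 2 out of the Lrp1 exon. Junctions outside the annotation were rare in these genes, with 33 reads on them with IL-10 and 20 in untreated cells, and the most abundant had 6 reads over both. No window of 60 bases across an annotated junction of the 8 genes occurred in a transcript of another gene.

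In the RefSeq promoter table (GRCm38.p6), the windows from 250 bases before to 50 after a start of Dab2, Lrp1 and Elmo1 include 1 each with TTCNNNGAA, the palindromic core letters of Stat motifs, and those of the other 5 genes include none. Dab2 and Elmo1 have 2 such windows each, and Lrp1 and the other 5 genes 1 each. Of 32851 promoters 8.30% hold it, which is a share of windows and not of genes. The match is a description of letters and was not tested against any value.

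Over 116 listed genes of the wider pathway in 8 lists, 95 were measured, of which Dab2 was called higher and Scarf1 lower, against 1.74% higher and 1.48% lower over all genes. Without the 8 genes, 87 of 108 were measured, and 0 were called higher and 1 lower. An interval above 1 was found for 22 and below 1 for 17. Over all genes 12.8% lay above and 13.1% below, and among genes with at least 500 reads 23.3% and 22.4%. Such intervals exclude 1 more often at higher depth, and no share at the depth of these 87 genes is given. The median log2 ratio of the 87 genes was 0.02 against 0.00 over all genes. In the list of phosphatidylserine receptors 15 of 20 genes were measured, with a median of 0.01. That list also holds Axl, Mertk and Tyro3, which Gas6 links to the lipid, integrin genes, Lrp1 and the calreticulin gene Calr. The scavenger receptor gene Scarf1 was lower with 17 reads with IL-10 and 37 untreated (0.463, 0.244 to 0.843), and the lipid receptor gene Cd300lf had 440 and 314 reads (1.41, 1.22 to 1.64). Among bridging molecules 9 of 10 were measured and 0 called, with a median of 0.11. The gene of Protein S, Pros1, had 213 and 139 reads (1.54, 1.24 to 1.93), the complement gene C1qb 574 and 396 (1.46, 1.28 to 1.66), and the thrombospondin gene Thbs1 2715 and 1985 (1.38, 1.30 to 1.46).

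Among engulfment signalling genes 17 of 21 were measured and 0 called, with a median of 0.12. The Rac activator gene Vav1 had 2239 reads with IL-10 and 1457 untreated (1.55, 1.45 to 1.66), the lipid transporter gene Abca7 134 and 88 (1.53, 1.16 to 2.03) and the adaptor gene Crkl 42 and 25 (1.69, 1.01 to 2.90). Of 18 endocytic adaptors and Lrp1 partners 16 were measured, Dab2 was called higher and 0 lower, and the median was 0.09. The scaffold gene Itsn1 had 622 and 401 reads (1.56, 1.38 to 1.78) and the clathrin assembly gene Picalm 3321 and 2411 (1.39, 1.32 to 1.46). Dab2 stood alone past 2-fold in that list.

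Find-me and do-not-eat-me signals had 6 of 12 measured and 0 called, with a median of 0.05. The inhibitory receptor gene Pirb had 1845 reads with IL-10 and 1365 untreated (1.36, 1.27 to 1.46), the nucleotide receptor gene P2ry6 48 and 62 (0.780, 0.524 to 1.16) and Cd47 437 and 386 (1.14, 0.992 to 1.31). Genes of receptor shedding, which cleaves Mertk from the surface, had 4 of 5 measured, 0 called and a median of -0.26. The protease gene Adam17 had 1590 and 1988 reads (0.806, 0.754 to 0.861), its regulator Rhbdf2 272 and 318 (0.862, 0.730 to 1.02) and the inhibitor Timp3 6 and 14 (0.432, 0.136 to 1.20).

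Phagosome maturation had 17 of 19 measured and 0 called, with a median of 0.02. The early endosome gene Rab5a had 157 reads with IL-10 and 244 untreated (0.648, 0.527 to 0.795), the oxidase subunit gene Cyba 8104 and 11591 (0.704, 0.685 to 0.725) and the late endosome gene Rab7 538 and 439 (1.24, 1.09 to 1.40). Lipid handling after uptake had 11 of 11 measured and 0 called, with a median of -0.06. The nuclear receptor genes Pparg and Ppard lay on opposite sides of 1, Pparg with 210 and 321 reads (0.659, 0.551 to 0.787) and Ppard with 68 and 42 (1.63, 1.09 to 2.46), and the cholesterol carrier gene Npc2 had 6020 and 7415 (0.818, 0.790 to 0.846).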

How the data were processed

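The submitters' processing notes name mm9, TopHat and Cufflinks, with no version. What the authors deposited is 1 list of splice junctions per library with an unscaled read count for each junction. Both samples carry identical protocol texts that mention IL-10, so groups follow the sample titles. Per the labels, library inserts were 188 bp (IL-10) and 197 bp (untreated).

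Names came from GENCODE M21, which is on a later build. A junction took a gene's name when it had the chromosome, strand and exact length of one of its introns, at a shift of up to 20 Mb common to 2 or more of them. Of 131057 junctions 106738 (81.4%, with 98.2% of reads) were named, 105512 of them by 1 gene. Coordinates are those of the deposited mm9 lists. Exon and junction sequences come from the GENCODE M21 transcripts.

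A gene's value is its reads on introns no other gene shares, as a share of all such reads in the library. Ratios carry exact conditional binomial (Clopper-Pearson) 95% intervals, and differences of shares carry Newcombe intervals. A gene was called with 20 or more reads in total, a ratio of 2 or more (or 0.5 or less) and an interval without 1. Log2 ratios use a pseudocount of 0.5 reads. The main transcript of a gene is the protein-coding one with the most reads.

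The 8 genes, the lists and the rules were chosen with earlier results of these data known. Named genes are the 8, and in each pathway list those called and the 3 with the largest absolute log2 ratio, and for a called gene of the 8 the 3 genes of at least 500 reads nearest in log2 ratio. The single markers printed were picked with their values in view. Alternatives included TMM scaling in edgeR (0.996 for IL-10 relative to untreated) and the median-of-ratios size factors of DESeq2. The procedure was tested on simulated counts that held counting error alone, so that test cannot speak to variation between libraries. Software was edgeR 4.0.16 and DESeq2 1.42.0 under R 4.3.3, and scipy 1.17.1, pandas 2.3.3 and numpy 2.4.6 under Python 3.11.15.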

Additional observations from a re-analysis of the deposited data

How the results depend on the processing

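No paired analysis was possible because each group is 1 library. Dab2 kept its direction in all 16 alternatives, between 2.74 and 2.95, and the other 7 genes also stayed on their side of 1 in each alternative run. Settings of the read minimum, the fold, the confidence level and the pseudocount cannot move a ratio, so only the remaining alternatives bear on these directions. Dab2 was called in each alternative that gives an interval, except with a fold of 3, where its ratio stayed at 2.90 and 0 of the 8 were called. Taking only each gene's most covered intron, Axl (0.476, 0.251 to 0.869) was called lower, so 1 of the 8 was. The intervals of Mertk (0.974, 0.747 to 1.27) and Gas6 (1.22, 0.751 to 1.998) then included 1, which left 2 of the 8 above 1 and 2 below, and the cause was not tested. With a 99% interval 2 of the 8 lay above 1.

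Counts over all genes, 146 higher and 124 lower, were 37 and 10 with at least 100 reads, 356 and 334 with a fold of 1.5 and 53 and 29 with a fold of 3. With no minimum of reads 187 were lower, and with a 99% interval 77. The pathway lists, with 1 called in each direction, had 3 higher with no minimum, 0 lower with at least 100 reads, 7 higher and 3 lower with a fold of 1.5, 0 and 0 with a fold of 3, and 3 higher and 2 lower from the most covered intron. Splice sites called over all genes, 18, were 30 with 10 reads per site, 4 with 50, 29 with a difference of 10 points and 9 with annotated junctions alone, and 0 of those in the 8 genes under any of these. Depth limits Timd4, Gas6 and most single introns of Axl, and the libraries have no replicate.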
